A study of Mus musculus with 4 samples.

Results

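The genes described here encode the enzymes that lengthen and desaturate long-chain fatty acids: the elongases Elovl1, Elovl2, Elovl3, Elovl4, Elovl5 and Elovl7, and the front-end desaturases Fads1, Fads2 and Fads3. They were taken by name, as the Elovl genes other than Elovl6 together with the 3 Fads genes, and make up 9 of the 30284 genes in the files. All 9 were found, and 6 of them (Elovl1, Elovl5, Elovl7, Fads1, Fads2 and Fads3) had enough reads to enter a test over 13602 genes. The libraries hold poly-A RNA of organoids of the small intestine, epithelial cultures that crypts form in Matrigel. The donors of the crypts were 2 C57BL/6J males with an age label of 9 weeks, whose tag refers to the start of a DSS course that the culture protocol does not mention, and cultures of each mouse received for 6 h either the vehicle DMSO or 2 µM GW3965, a synthetic ligand that activates the liver X receptors (LXR). Each treatment thus had 2 libraries, 1 per mouse, with no genetic change in either group, so that the 2 libraries of a treatment differ by animal and the 2 libraries of a mouse differ by treatment.

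Elongases sit in the membrane of the endoplasmic reticulum and catalyse the condensation step that adds a pair of carbons to a fatty acyl-CoA, after which a reductase, a dehydratase and a second reductase complete the cycle. Front-end desaturases place a double bond between an existing one and the carboxyl end of the chain, with electrons from cytochrome b5, and alternate with elongases to turn dietary linoleic and alpha-linolenic acid into arachidonic, eicosapentaenoic and docosahexaenoic acid. Several genes of these steps are known targets of SREBP-1c, the product of the LXR target Srebf1, and LXR ligands are known to raise Srebf1 in many tissues. The comparison asks whether their transcripts differ after 6 h of the agonist.

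The total estimated count per library was between 16572359 and 19486547. Abca1 and Srebf1, taken from 9 genes listed as LXR controls, responded in both mice. Normalised CPM are gene counts scaled by library size with a TMM correction. In this unit Abca1, a cholesterol exporter, was at 0.462 and 1.75 with DMSO and at 42.8 and 60.4 with GW3965. Srebf1 was at 73.0 and 78.4 against 398 and 476.9 (edgeR adjusted p = 0.00134 for Abca1 and 0.00525 for Srebf1). Of the 9 listed controls, 5 had an edgeR adjusted p under 0.05, all higher with GW3965. Lpcat3 was among those that did not. Epithelial markers fitted the label, with 7 of 7 tested and a summed level of 21460 to 30580 CPM, and the small-intestinal marker list summed to 8454 to 10220 CPM against 29.8 to 34.2 for the colon list. No gene of these lists was at 0 in all libraries. The GW3965 library of mouse 1 stood apart, with 14.01% of its gene counts from the mitochondrial genome against 7.60 to 9.43% in the other 3, and with a summed immune marker level of 61.7 CPM against 31.5 to 36.8 CPM. The results of the 6 tested members are therefore also given by mouse.

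The promoters of the more abundant elongase genes are set beside the values as annotated, since start sites were not measured here. For the 3 highest of the 6 elongase genes described here, the 250 bases before the annotated start are printed 5′ to 3′ on the gene's strand. Of the 9 genes, 7 had an entry in the RefSeq promoter table (GRCm38.p6), and Elovl1 and Elovl2 had 2 each, which gave 9 windows. Elovl3 and Fads1 had no entry. In the sequences, capitals mark matches on either strand to the CCAAT box (CCAAT), the GC box (GGGCGG) and the E box (CACGTG). A match describes letters and does not show that a factor binds.
Elovl1, upstream start (chr4:118427843-118428092, plus strand): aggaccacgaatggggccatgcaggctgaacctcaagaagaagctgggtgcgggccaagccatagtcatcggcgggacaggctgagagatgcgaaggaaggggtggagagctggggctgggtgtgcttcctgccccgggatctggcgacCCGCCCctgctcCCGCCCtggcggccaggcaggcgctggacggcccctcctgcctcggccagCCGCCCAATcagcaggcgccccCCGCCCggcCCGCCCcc
Elovl1, downstream start (chr4:118429451-118429700, plus strand): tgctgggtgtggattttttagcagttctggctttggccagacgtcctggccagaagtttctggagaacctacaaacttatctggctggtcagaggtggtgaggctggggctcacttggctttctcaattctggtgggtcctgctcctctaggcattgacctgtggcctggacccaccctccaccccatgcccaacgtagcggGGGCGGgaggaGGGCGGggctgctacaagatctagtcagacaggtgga
Elovl7 (chr13:108214154-108214403, plus strand): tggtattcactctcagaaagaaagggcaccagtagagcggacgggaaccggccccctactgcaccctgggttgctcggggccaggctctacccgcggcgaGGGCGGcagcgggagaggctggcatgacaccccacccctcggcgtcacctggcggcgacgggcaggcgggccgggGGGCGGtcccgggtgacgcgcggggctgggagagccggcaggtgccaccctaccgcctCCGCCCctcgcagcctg
Elovl5 (chr9:77917115-77917364, plus strand): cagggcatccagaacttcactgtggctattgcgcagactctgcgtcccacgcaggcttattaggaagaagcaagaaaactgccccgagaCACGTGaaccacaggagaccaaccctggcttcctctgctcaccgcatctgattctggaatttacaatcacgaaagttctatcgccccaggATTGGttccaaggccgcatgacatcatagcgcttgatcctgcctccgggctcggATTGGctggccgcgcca

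The genes themselves span 118428093 to 118432953 on chromosome 4 for Elovl1, 108214404 to 108285683 on chromosome 13 for Elovl7 and 77917364 to 77984519 on chromosome 9 for Elovl5, all on the plus strand (GRCm38, GENCODE M21). The upstream Elovl1 window was 72% G and C, with 5 GC boxes and 1 CCAAT box, which overlaps the GC box beside it. The downstream Elovl1 window was 58.0% G and C and held 2 GC boxes. Elovl7 had 73.6% and 3 GC boxes. Elovl5 differed from these, at 55.6% with no GC box: it held 2 CCAAT boxes in reverse orientation and 1 E box, whose first base lies at -161 from the start and which reads the same on both strands. Over all 32851 promoter windows of this length the median was 52.4% G and C, and the share holding a motif was 33.8% for the CCAAT box, 32.7% for the GC box and 6.02% for the E box. Of the 9 member windows, 3 held a CCAAT box, 7 a GC box and 1 an E box. A sterol regulatory element (TCACNCCAC) was in 1.05% of all windows, a TATA box (TATAAA) in 12.4% and a direct repeat of 2 nuclear receptor half-sites with 4 bases between (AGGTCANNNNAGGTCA) in 0.0152%. None of these 3 was in any of the 9 member windows, which says only that these letters are not in these windows. The windows include none of Fads1 or Elovl3, so their promoters were not searched. The Fads2 window is not printed, because 243 of its 250 bases lie in an exon of the GENCODE M21 annotation. It is counted among the 9 windows, but says little about the bases upstream of Fads2.

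Elovl1, the elongase of saturated and monounsaturated very-long-chain acyl-CoAs, was by far the most abundant member. In TPM, a unit scaled for transcript length that allows levels to be compared between genes, it was at 158.7 and 160.0 with DMSO and at 127.3 and 161.2 with GW3965, in mouse 1 and mouse 2 respectively. Its mean over the 4 libraries was above that of 96.1% of the 21016 genes with any TPM. Among the 7 Elovl genes, Elovl6 included, Elovl1 held 58.9 to 61.1% of the summed TPM, and Elovl6, the elongase of palmitate, held 22.5 to 24.6%. Elovl7, which acts mainly on saturated long chains, and Elovl5, which elongates polyunsaturated chains of middle length, followed, with DMSO means of 21.5 ± 0.39 and 20.3 ± 1.01 TPM (SD, n = 2). Elovl7 was at 21.2 and 21.8 TPM in the DMSO libraries and Elovl5 at 19.5 and 20.96, a gap near the size of the SD of Elovl5. Of these Elovl5 levels, 6.18 and 9.63 TPM came from Elovl5-202, a transcript of 638 bases with 51.0 and 81.3 estimated counts. Elovl5-201, of 2782 bases, had 13.4 and 11.3 TPM, so the near tie rests on the short transcript. The order of Elovl7 and Elovl5 turned in the GW3965 library of mouse 2. There the TPM of Elovl7 was 0.755 of that of Elovl5, against 1.04 to 1.09 in the other 3 libraries. That order rests on transcript length: the files give Elovl7 5435 bases where GENCODE M21 has 4013, and over the M21 lengths the same counts gave a ratio of 1.04 in that library and of 1.43 to 1.49 in the others.

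Desaturase transcripts were lower than those of the 3 expressed elongase genes. Fads2, the delta-6 desaturase of the first and rate-limiting step, had a DMSO mean of 8.16 ± 0.50 TPM, Fads1, the delta-5 desaturase that makes arachidonic acid, had 3.64 ± 0.38 TPM, and Fads3, whose known substrates include sphingoid bases, had 1.34 ± 0.27 TPM (SD, n = 2 each). Fads2 exceeded Fads1 in all 4 libraries, 1.94-fold to 2.84-fold, and Fads1 exceeded Fads3 2.20-fold to 3.48-fold. Of the summed TPM of the 3 Fads genes, Fads2 held 60.2 to 68.6%. The place of Fads2 rests on its length, which is 1508 bases in the files and 3150 in GENCODE M21. With the same counts over the M21 lengths, the ratio of Fads2 to Fads1 was 0.9747 and 0.871 in mouse 1 and 1.04 and 1.27 in mouse 2 (DMSO, then GW3965), and Fads2 held 40.99 to 50.1% of the sum. Reads from bases outside the shorter model were not counted, so the order of Fads2 and Fads1 is not settled by these files. Fads3 was the lowest of the 3 with either set of lengths.

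Elovl2 (chromosome 13, 41182381 to 41220405, minus strand), Elovl3 (chromosome 19, 46131897 to 46135694, plus strand) and Elovl4 (chromosome 9, 83778692 to 83806277, minus strand) were at or near the counting floor, which is 3 counts per library or 0.154 to 0.183 CPM. Elovl4, the elongase of the longest chains in retina and skin, had 7 counts in each DMSO library and 2 and 7 with GW3965 in mouse 1 and mouse 2. Elovl2, which acts on polyunsaturated chains after Elovl5 on the way to docosahexaenoic acid, had 3 and 4 counts with DMSO and 0 in both GW3965 libraries, which allows up to 0.183 CPM in mouse 1 and 0.157 CPM in mouse 2. Elovl3, an elongase of skin, brown fat and liver, had 1 count in the GW3965 library of mouse 1 and 1 in the DMSO library of mouse 2. These 3 genes had too few counts to enter the main test, so a difference between the treatments was not tested there. The first RefSeq promoter window of Elovl2 was 87.2% G and C with 49 CpG, against a median of 6 CpG over all windows.

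**Figure D1:**
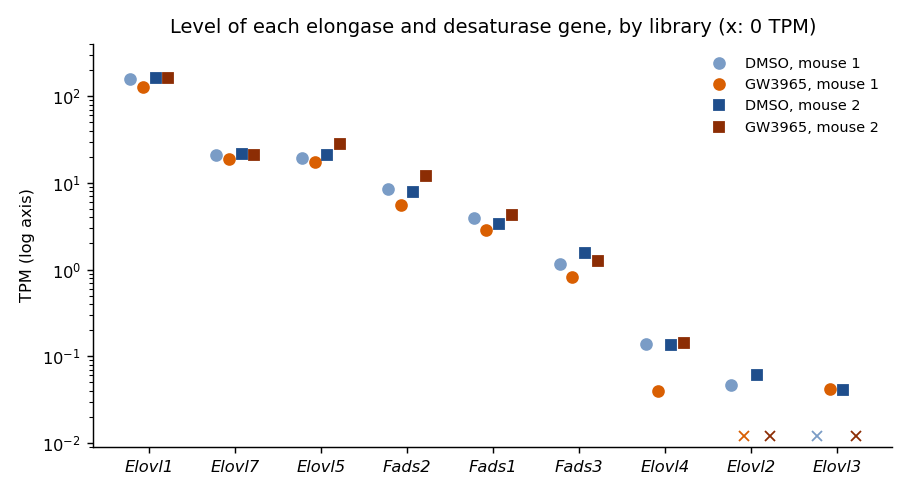
Level of the 9 genes in each of the 4 libraries, in TPM on a log axis, in the order of their DMSO means. Points are single libraries (blue DMSO, orange and brown GW3965, circles mouse 1, squares mouse 2) and a cross marks a library at 0 TPM. Elovl1 sits between 127.3 and 161.2, and Elovl4, Elovl2 and Elovl3 lie below 0.15 in every library.

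GW3965 changed none of the 6 tested members past the threshold, a Benjamini-Hochberg adjusted p of 0.05 over all genes in the edgeR quasi-likelihood test. Over all genes that rule called 0.0588% (8 of 13602, all higher with GW3965), and 1.05% had an unadjusted p under 0.05. Of the 6 members 0 had an unadjusted p under 0.05, and 0 were called by DESeq2, by limma-voom or with the mouse as a block, a fit that called 0.353% of all genes. The log2 fold change was positive for Elovl5, Fads2 and Fads1 and negative for Elovl1, Elovl7 and Fads3, where 50% of all genes were positive. The edgeR adjusted p was 0.99986 for each of the 6. Their median was -0.001 against 0 over all genes tested. By mouse the members' median was -0.20 in mouse 1 and 0.08 in mouse 2, against -0.002 and -0.004 over all genes. The 2 DMSO and the 2 GW3965 libraries overlapped for each of the 6 members, while over all genes 9.28% had both GW3965 libraries above both DMSO libraries and 9.18% had both below. The difference had the same sign in both mice for 2 of the 6 members (Elovl1 and Fads3), a share near the 33.5% over all genes.

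Elovl5 was at 34.7 and 33.1 normalised CPM in the DMSO libraries of mouse 1 and mouse 2, and at 33.4 and 51.5 with GW3965. The GW3965 library of mouse 2 thus stood above the other 3, which lay close together. The log2 fold change was 0.33 ± 0.23 (standard error, 95% interval -0.18 to 0.83, edgeR adjusted p = 0.99986). Within mouse 1 the log2 difference was -0.05, with a 95% counting interval of -0.22 to 0.11, and within mouse 2 it was 0.64 (0.49 to 0.79). These exact binomial intervals cover counting error alone and do not overlap between the mice. Among all genes tested, the Elovl5 difference lay at percentile 44.8 in mouse 1 and 97.1 in mouse 2.

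Fads2 was at 10.4 and 10.1 CPM with DMSO and at 8.16 and 14.7 CPM with GW3965, in mouse 1 and mouse 2. Its DMSO libraries were nearly level, with the GW3965 library of mouse 1 below them and that of mouse 2 above. The log2 fold change was 0.16 ± 0.29 (95% interval -0.49 to 0.80, edgeR adjusted p = 0.99986). The log2 difference was -0.35 in mouse 1 (counting interval -0.68 to -0.03) and 0.54 in mouse 2 (0.27 to 0.81), at percentiles 18.4 and 96.4 of all genes. Fads2 and Elovl5 encode consecutive steps of polyunsaturated chain synthesis, and both were highest in the GW3965 library of mouse 2. Fads1 and several epithelial markers were also highest in that library, and other epithelial markers were not. The share of all genes highest there was not counted, so the peak is not shown to be particular to this pathway.

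Fads1 was at 11.8 and 10.8 CPM with DMSO and at 10.4 and 12.7 CPM with GW3965, so that the 4 libraries were close and the mice again differed in sign. Its log2 fold change was 0.03 ± 0.23 (95% interval -0.47 to 0.54), with -0.19 in mouse 1 (counting interval -0.49 to 0.10) and 0.24 in mouse 2 (-0.03 to 0.52). For Fads1 both intervals include 0, so neither difference was beyond counting error.

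**Figure D2:**
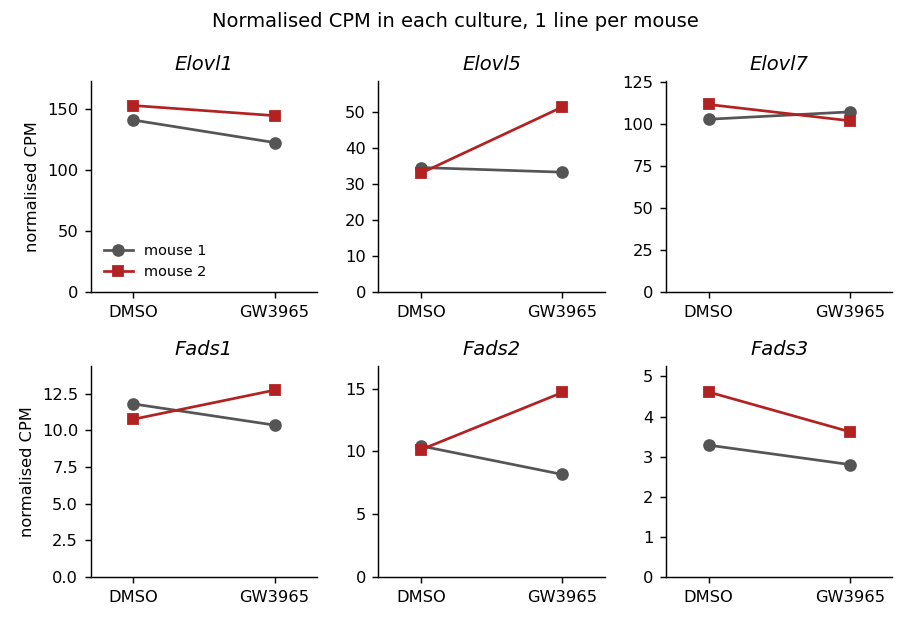
Normalised CPM of the 6 tested members in each culture, with a line joining the DMSO and the GW3965 culture of a mouse (grey circles mouse 1, red squares mouse 2) and each axis starting at 0. Elovl5 and Fads2 start level in the DMSO cultures and part in the GW3965 cultures, at 33.4 and 51.5 CPM for Elovl5 and 8.16 and 14.7 CPM for Fads2.

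These differences rest on which GW3965 library is used. Without the GW3965 library of mouse 1, which had the high mitochondrial share, edgeR gave Elovl5 a log2 fold change of 0.60 (unadjusted p = 0.000576, adjusted p = 0.103) and Fads2 0.51 (unadjusted p = 0.0155, adjusted p = 0.846). Without the GW3965 library of mouse 2 the values were -0.02 and -0.33, with adjusted p of 0.939 and 0.380, and over all alternatives the lowest adjusted p was 0.103 for Elovl5 and 0.380 for Fads2. Each of these fits rests on 3 libraries, takes the lone library to vary like the others and mixes mouse with treatment. In mouse 2 the mitochondrial share was 9.43% with DMSO and 8.74% with GW3965, epithelial markers summed to 29120 and 30580 CPM and immune markers to 36.8 and 32.2 CPM. In mouse 1 the mitochondrial share was 7.60 and 14.01%, epithelial markers 28940 and 21460 CPM, and immune markers 31.5 and 61.7 CPM. The part of these shifts in the members' values was not tested, and in bulk RNA fewer cells of a type and less RNA per cell cannot be told apart. With 1 pair of cultures per mouse, the difference between the mice was not tested either.

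Elovl1 was at 141.2 and 153.1 CPM with DMSO and at 122.7 and 144.8 CPM with GW3965. It was lower with GW3965 in each mouse in CPM, and the GW3965 library of mouse 2 lay between the 2 DMSO libraries. Its TPM in mouse 2 were 160.0 and 161.2, but TPM carry no TMM correction, so the units scale the libraries differently. The log2 fold change was -0.14 ± 0.21 (95% interval -0.61 to 0.33), with -0.20 in mouse 1 (counting interval -0.29 to -0.12) and -0.08 in mouse 2 (-0.16 to -0.01). Elovl1 overlaps Cdc20 on the opposite strand and shared 0.82% of its 31-mers with it, and no source used here says whether counting took account of the strand, so reads of that overlap cannot be assigned with certainty.

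Elovl7 was at 102.9 and 111.7 CPM with DMSO and at 107.3 and 102.0 CPM with GW3965, the narrowest range of the 6 members relative to its level. Its log2 fold change was -0.04 ± 0.20 (95% interval -0.47 to 0.40), and in CPM the mice differed in sign, with 0.06 in mouse 1 (counting interval -0.03 to 0.15) and -0.13 in mouse 2 (-0.22 to -0.04). These intervals do not overlap, while the TPM of Elovl7 were lower with GW3965 in both mice (21.2 and 18.7, 21.8 and 21.04). For a gene with a single transcript, TPM and CPM differ by a factor of the library, and TPM carry no TMM correction. Fads1 likewise fell further in mouse 1 in TPM (3.91 to 2.89) than in CPM (11.8 to 10.4). The lower TPM of Elovl7 are thus no separate result about this gene. Fads3 was at 3.29 and 4.61 CPM with DMSO and at 2.80 and 3.62 CPM with GW3965. It was lower with GW3965 in each mouse (log2 differences of -0.23 and -0.35), with a log2 fold change of -0.29 ± 0.33 (95% interval -1.04 to 0.45). Fads3 rested on 46 to 87 counts per library, and the counting interval of either mouse includes 0.

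**Figure D3:**
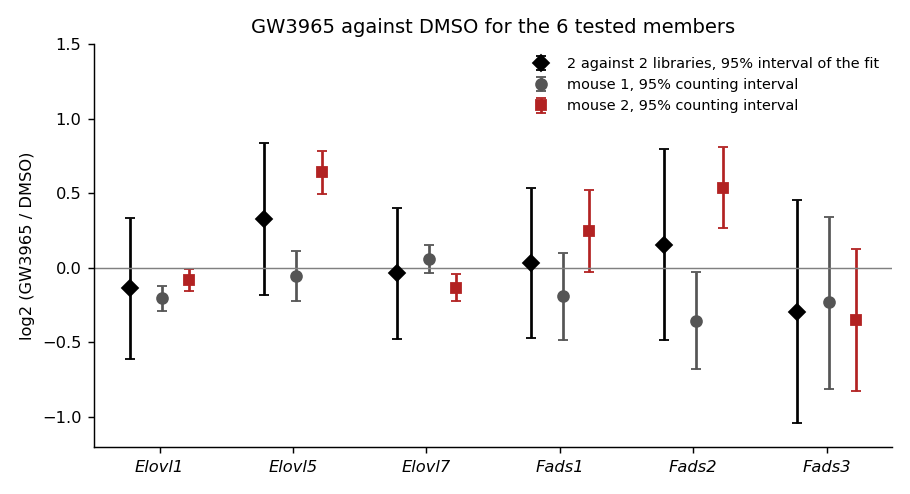
Log2 ratio of GW3965 to DMSO for the 6 tested members. Black diamonds are the fit over 2 against 2 libraries with its 95% interval, and grey circles and red squares are the single ratios of mouse 1 and mouse 2 with 95% counting intervals. All 6 black intervals include 0, and the counting intervals of the 2 mice do not overlap for Elovl5 (-0.05 and 0.64), Fads2 (-0.35 and 0.54) and Elovl7 (0.06 and -0.13).

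At the level of transcripts, Elovl1 was the member with the most variety: all 7 of its annotated transcripts had counts, and 3 of them held at least 10% of the gene's estimated counts in some library. Elovl1-202, the only one that begins at the downstream start, took 34.4, 32.2, 34.2 and 37.7% in the order DMSO and GW3965 of mouse 1, then DMSO and GW3965 of mouse 2. The other 6 begin near the upstream start and together took 62.3 to 67.8%. Among these, Elovl1-203 took 24.6 to 30.5% and Elovl1-207 took 31.1, 20.4, 32.3 and 26.2% in the same order of libraries. The division among transcripts that share most of their bases is an estimate by kallisto, so these shares are less certain than the gene's total.

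Elovl1-207 was at 44.5 and 49.4 CPM with DMSO and at 24.2 and 39.2 CPM with GW3965, lower in each mouse with no overlap of the groups. Its log2 fold change was -0.57 ± 0.29 (95% interval -1.33 to 0.20, unadjusted p = 0.112, edgeR adjusted p = 0.999977 over 32357 transcripts). Elovl1-202 had -0.10 ± 0.25 and Elovl1-203 had 0.04 ± 0.17. Of the 13 member transcripts tested, Elovl1-207 had both GW3965 libraries below both DMSO libraries and Elovl1-201 had both above, where 12 and 13.4% of all transcripts did. In edgeR 0 of the 13 passed the threshold and 0 had an unadjusted p under 0.05, against 0% and 2.61% of all transcripts, and no other tool was run on transcripts.

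**Figure D4:**
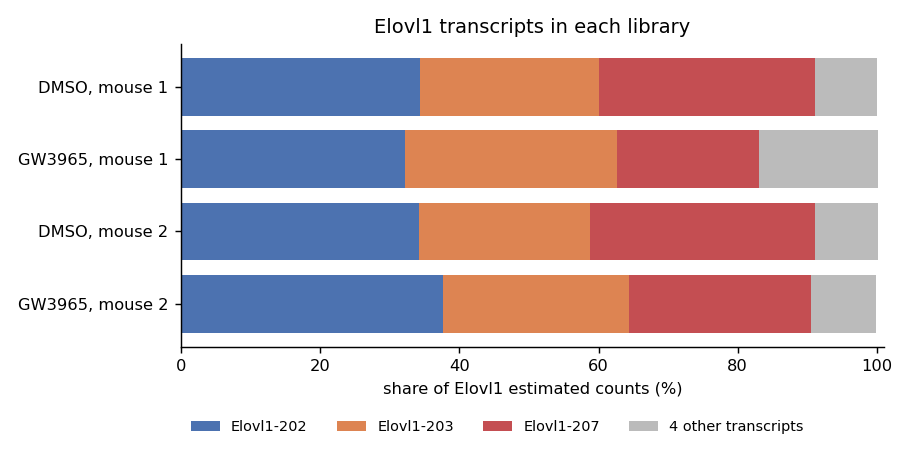
Share of the Elovl1 estimated counts held by each transcript, in percent, with 1 bar per library. Elovl1-207 takes 31.1 and 32.3% with DMSO and 20.4 and 26.2% with GW3965, while Elovl1-202 stays between 32.2 and 37.7%.

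Elovl5 had counts on 2 of its 4 annotated transcripts. Elovl5-201, the full-length form of 2782 bases, held 92.5, 89.9, 87.0 and 93.6% of the gene's counts in the order DMSO and GW3965 of mouse 1, then of mouse 2, and carried the higher value in mouse 2 (28.7 and 49.8 CPM, a log2 difference of 0.79). The short form Elovl5-202, of 638 bases, was at 4.29 and 3.41 CPM in the same cultures. The log2 fold change of Elovl5-201 was 0.37 ± 0.31 (unadjusted p = 0.298, edgeR adjusted p = 0.999977). Elovl7 and the 3 Fads genes each had a single transcript in the files, so no shift of isoform could be seen for them.

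Fads1, Fads2 and Fads3 lie together on chromosome 19 (GRCm38, GENCODE M21 annotation). Fads3 (10041569 to 10060110, plus strand) comes first, then Fads2 (10062765 to 10101746, minus strand) and Fads1 (10182888 to 10196877, plus strand), with the divergent starts of Fads1 and Fads2 81142 bases apart. Fads2 and Fads3 shared 0.77 and 0.66% of their 31-mers with each other. None of the 5 tested neighbours of this cluster passed the test. Fen1, a flap endonuclease of DNA replication, had -0.33 ± 0.21, Tmem258, a subunit of the oligosaccharyltransferase complex, had 0.06 ± 0.20, and Fth1, the ferritin heavy chain, had -0.05 ± 0.25 on the log2 scale. In mouse 2, where Fads2 was higher with GW3965 (0.54), Fads1 had 0.24 and Fads3 -0.35, and of the neighbours Myrf had 0.07, Fen1 -0.03, Fth1 -0.04, Dagla -0.09 and Tmem258 -0.25.

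The profile of a member over the 4 libraries was set against that of 9253 genes with a mean of at least 3 log2 CPM. Nearest to Elovl5 was Acaca, the acetyl-CoA carboxylase that makes malonyl-CoA, the carbon donor of elongation, with a root mean square difference of 0.0599 log2 units after centring. Acaca was at 15.9 and 15.5 CPM with DMSO and at 15.2 and 26.1 CPM with GW3965. It was picked for its likeness to Elovl5, so a peak in the GW3965 library of mouse 2 follows from the choice. Next came Syne2, B4galt6, Slc7a3 and Onecut2, at 0.0641 to 0.0877, each also highest in that library. Nearest to Fads2 were Tpm3-rs7, Bod1l, Aplp2, Slc39a8 and Rock1 (0.0405 to 0.0641), and nearest to Fads1 were Asb7, Zzz3, Senp6, Nfib and Ccser1 (0.00505 to 0.0148). With 4 libraries, such nearness is a description only.

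The enzymes that complete each elongation cycle also showed no call: of 7 listed, 6 were tested, 0 rose and 0 fell, and 0 had an unadjusted p under 0.05. The ketoacyl-CoA reductase gene Hsd17b12 was at 141.7 and 144.8 CPM with DMSO and at 110.7 and 137.5 CPM with GW3965 (log2 fold change -0.21 ± 0.21), and the enoyl-CoA reductase gene Tecr was at 76.3 and 75.7 against 59.3 and 71.7 CPM (-0.21 ± 0.19). Both were lower with GW3965 in each mouse without overlap of the groups, as 9.18% of all genes were, and did not pass. The dehydratase genes Hacd1, Hacd2 and Hacd3 had log2 fold changes of -0.04, 0.08 and 0.02, and Hacd4, with less than 1 CPM in every library, had 1.11 ± 0.60, with both GW3965 libraries above both DMSO libraries, as in 9.28% of all genes. Among the electron donors and relatives of the desaturases, 8 of 8 were tested and 0 passed in either direction. There, Fads6 had 0.51 ± 0.42, Cyb5r1 0.17 ± 0.20 and Cyb5r3, the main cytochrome b5 reductase, -0.20 ± 0.25.

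Among the pathway lists beside the LXR controls, a call was made in the monounsaturated branch alone. Of its 4 tested genes 1 rose and 0 fell: Scd2, a delta-9 desaturase, went from 52.8 to 342.7 CPM in mouse 1 and from 73.8 to 606.8 CPM in mouse 2 (edgeR adjusted p = 0.0142). Scd1, its relative, went from 0.668 to 3.78 and from 1.54 to 9.13 CPM (adjusted p = 0.338, and 2.72e-07 with the mouse as a block, a fit in which the variance comes from genes of like level and not from the gene's own spread). Scd3 had 0.79 ± 0.62 and Elovl6 had -0.07 ± 0.23. Thus the delta-9 desaturase gene Scd2 passed the test, and the front-end desaturase genes Fads1, Fads2 and Fads3 did not. The upper 95% bounds on the log2 fold change were 0.54, 0.80 and 0.45 for Fads1, Fads2 and Fads3, and the lower bound for Scd2 was 2.17.

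Genes that activate, incorporate, shorten or release these chains did not pass either. Of the 7 genes of activation and incorporation into phospholipid 0 passed, with Lpcat3, the acyltransferase that places polyunsaturated chains in phospholipids, at 0.75 ± 0.25 (unadjusted p = 0.0122, edgeR adjusted p = 0.99986), Acsl6 at 0.65 ± 0.46 and Mfsd2a at 0.25 ± 0.20. Lpcat3 had its larger difference in the same mouse as Elovl5 and Fads2, with 0.42 in mouse 1 and 1.04 in mouse 2. The peroxisomal enzymes that shorten very long chains had 9 tested and 0 called, and the smallest p was that of Acaa1b, a peroxisomal thiolase, at 0.99 ± 0.42 (unadjusted p = 0.0418, edgeR adjusted p = 0.99986). Abcd3 had -0.19 ± 0.24 and Acot8 0.18 ± 0.23. Ceramide synthases, some of which use products of Elovl1, had 5 tested and 0 called. Cers2, the most abundant and selective for very long chains, was at -0.02 ± 0.21, Cers4 at 0.22 ± 0.22, Cers3 at -0.19 ± 0.42 and Cers5 at 0.08 ± 0.21. Of the 14 tested genes of release and eicosanoid synthesis 0 were called, and the smallest p was that of Ltc4s, leukotriene C4 synthase, at 0.58 ± 0.48, followed by Alox5, the 5-lipoxygenase, at -0.31 ± 0.38 and Pla2g2a, a secreted phospholipase, at -0.28 ± 0.35. Among the genes of these lists that are named, the sign differed between the mice for Elovl6, Cyb5r1, Cyb5r3, Hacd1, Hacd2, Hacd3, Scd3, Abcd3, Acot8, Cers2, Cers3, Cers4, Pla2g2a, Tmem258, Dagla and Myrf.

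**Figure D5:**
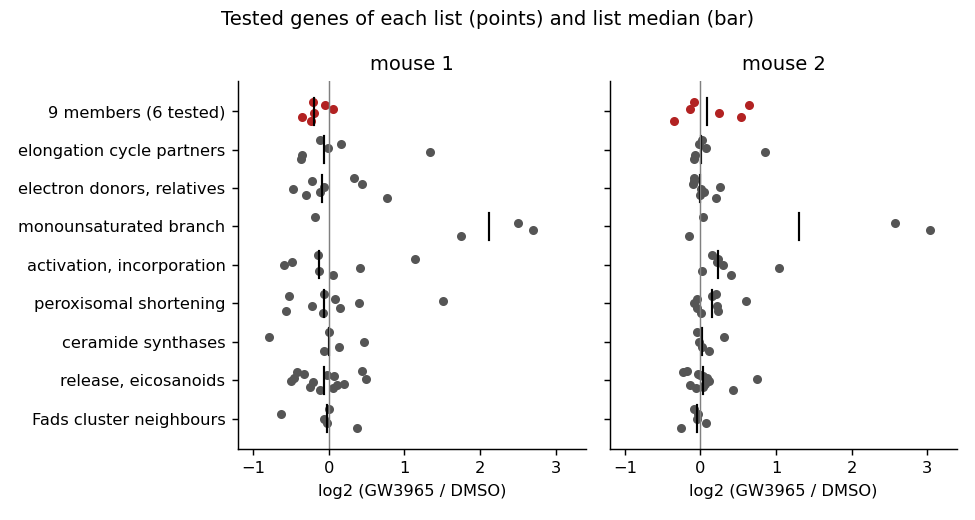
Log2 ratio of GW3965 to DMSO within mouse 1 (left) and mouse 2 (right) for each tested gene of the lists named at the side, with a bar at the list's median. The members' median (red points) lies at -0.20 in mouse 1 and 0.08 in mouse 2, and the high values of the monounsaturated branch are those of Scd2 and Scd1, joined by Scd3 in mouse 1.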

How the data were processed

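Poly-A libraries (a stranded kit, single-end reads) were sequenced, per the labels' protocols, whose extraction text names colon although the tissue label names small-intestinal organoids. The submitters' processing notes name kallisto, CASAVA 1.7, FastQC and mm10. The authors deposited, per transcript, estimated counts and TPM from kallisto, per the file headers. Their series-wide table of counts holds the same estimated counts rounded (largest gap 0.5), and the authors also deposited log2 CPM for 8524 genes, with no scaling stated in the sources used here. In that table the means of the 2 mice differed by a median of 0.0164 log2 units, against 0.165 in log2 CPM from the counts, so its levels are not printed.

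Of 88198 transcripts, 97.6% matched GENCODE M21 (GRCm38). The unmatched ones held 0.69 to 0.85% of a library's counts and stayed out. Of the matched transcripts 88.9% had the same length as in M21. Estimated counts were summed per gene and rounded, and tested with edgeR 4.0.16 (R 4.3.3; filterByExpr, TMM, quasi-likelihood F test, standard errors from the F statistic), 2 libraries against 2 without a block (2 residual degrees of freedom). The script was tested on simulated data. Same-numbered libraries come from 1 mouse, per the labels, and their deviations from the group means correlated only weakly, at 0.0724. As an alternative, the mouse was also fitted as a block (1 residual degree of freedom). The block changed no call among the members. DESeq2 1.42.0 and limma 3.58.1 served as alternatives. P-values of the main fit rest on the spread between these 2 mice, moderated towards genes of like level (7.78 prior degrees of freedom). In the block fit the prior degrees of freedom were infinite, so the variance came from genes of like level alone. Reads carry no molecular identifiers, so counting intervals (exact binomial, 95%) and floors cover counting error only.

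The members and all gene lists were chosen with earlier results of these data known. Genes named are the 9 members, of each pathway list the called genes and otherwise the 3 with the smallest p, of the LXR controls Abca1 and Srebf1 alone, the 5 genes nearest in profile to Fads1, Fads2 and Elovl5, and transcripts with at least 10% of a member's counts. Hacd1, Hacd2, Hacd3, Scd1, Scd3, Elovl6, Cers2, Dagla, Myrf, Cdc20 and Elovl1-201 fall outside that rule and were chosen after their values were seen.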

Additional observations from a re-analysis of the deposited data

How the results depend on the processing

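The count of members past the threshold was 0 under every alternative run. At the level of transcripts, none of any gene passed in the main fit or in its 7 alternatives. A count of 0 member transcripts therefore carries no information. The members' median, -0.001 in the main fit, was between -0.194 and 0.076 when 1 library was left out. It stayed within 0.197 log2 units of its main value. That bar is the SD of the medians of the 2 mice in these same data, so it is not an independent one. Over all genes the count of 8 calls was 48 with the mouse as a replicate block, 13 without TMM scaling, 20 in DESeq2, 20 in limma-voom, 14 without a filter on low counts, 13 on log2(TPM + 1), 16 on log2(TPM + 0.1), 7 with upper-quartile scaling and 8 without mitochondrial genes, and 38 to 84 when 1 library was left out. On the authors' deposited log2 CPM 0 of 8524 genes were called, so a count of 0 members there carries no information. Fads1 and Elovl7, whose main values lie near 0, turned sign in some alternatives. Elovl5 and Fads2 turned sign when the GW3965 library of mouse 2 was left out. Fads1, at 0.03, was -0.04 on log2(TPM + 1), -0.05 on log2(TPM + 0.1) and between -0.13 and 0.17 when 1 library was left out. In such fits Elovl7 ranged from -0.09 to 0.02, Elovl5 from -0.02 to 0.60 and Fads2 from -0.33 to 0.51. On log2(TPM + 1) Elovl5 was 0.11 and Fads2 0.02. The GW3965 library of mouse 2 decides the sign of Elovl5 and Fads2. Elovl1 and Fads3 stayed negative under every alternative that gave them a value, at -0.26 to -0.02 and -0.52 to -0.04. The M21 transcript lengths, an alternative chosen after seeing the data, took the mean TPM ratio of Fads2 to Fads1 from 2.32 to 1.04, of Elovl7 to Elovl5 from 0.991 to 1.36 and of Elovl1 to Elovl7 from 7.32 to 5.34. Intervals of the fit that reach 0.83 for Elovl5, 0.80 for Fads2 and -1.04 for Fads3 show what 2 mice cannot resolve.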
